A study of Mus musculus with 12 samples.

Results

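The genes described here encode the hormone hepcidin and the proteins that liver cells use to sense, import, store and export iron. They were chosen by name: Hamp and its duplicate Hamp2 (hepcidin), Bmp6, Hfe and Tfr2 (hepcidin control), Trf and Tfrc (iron import), Fth1 and Ftl1 (ferritin storage) and Slc40a1 (export). Of the 47069 genes in the expression table, 10 carried these symbols, and all 10 were among the 17386 genes with a mean of at least 0.1 FPKM (read fragments scaled by transcript length and library size) over the 12 libraries. Hepcidin is a peptide hormone made by hepatocytes that binds the iron exporter ferroportin and has it degraded, so that less iron leaves macrophages, hepatocytes and gut cells. Its transcription is driven by BMP ligands through SMAD proteins, with HFE and transferrin receptor 2 sensing circulating iron, and by inflammatory cytokines such as interleukin-6 through STAT3. Many other iron genes are set after transcription, by iron regulatory proteins that bind hairpins in their messages, block translation when the hairpin lies in the 5′ UTR and stabilise the message when hairpins lie in the 3′ UTR.

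Cdk1 Liv-/- mice carry Cdk1 flox/flox and Albumin-Cre, which is active in cells of the hepatocyte lineage, and were compared with wild type (WT) mice, whose Cre status the sources used here do not give. RNA was sequenced at postnatal day 14 from hepatocytes isolated by a published protocol and from whole liver of each genotype, with 3 libraries in each of the 4 groups. All mice were on a standard diet and, by the study's methods, male. The methods speak of biological replicates, but no label ties a library to an animal, so p-values here measure the spread between these libraries, and libraries with the same number in hepatocytes and whole liver are not shown to be pairs. The FPKM of a library summed to between 649066 and 698265, and 1 FPKM on a kilobase of transcript corresponded to an estimated 34.7 to 49.8 reads.

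Cdk1, the targeted gene, followed the labels. It stood at 27.9, 20.4 and 28.2 FPKM in WT hepatocytes and at 9.68, 11.8 and 6.87 in Cdk1 Liv-/- hepatocytes. In whole liver it stood at 25.3, 22.7 and 21.5 FPKM in WT and 11.7, 12.1 and 14.2 in Cdk1 Liv-/-. The genotypes did not overlap in either compartment, and Cdk1 fell by 1.40 on the log2 scale in hepatocytes (adjusted p = 0.0148) and by 0.85 in whole liver (adjusted p = 0.00353).

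Hepatocyte markers were present in every library. The 12 hepatocyte markers, of which Alb was the most abundant (60008, 64298 and 62222 FPKM in WT hepatocytes and 41868, 44889.8 and 39898 in Cdk1 Liv-/- hepatocytes), summed to 85258, 94119 and 88893 FPKM in WT hepatocytes and to 61032, 61462 and 58322 in Cdk1 Liv-/- hepatocytes. In whole liver they summed to 88409, 86637 and 89428 in WT and to 68864, 61536 and 67261 in Cdk1 Liv-/-, with no marker at 0 in any library. Their median log2 fold change in hepatocytes was -0.087, with 2 higher and 2 lower by adjusted p (1 and 2 with median-ratio size factors, 0 and 2 without WT hepatocytes replicate 3). In whole liver it was -0.46, with 0 higher and 6 lower (-0.68 and 7 lower with median-ratio size factors). By adjusted p 12.1% of all genes were higher and 6.61% lower in hepatocytes, and 38.0% and 7.53% in whole liver. Markers of other cells were present in every hepatocyte preparation too. The 7 cholangiocyte markers, with Spp1 the most abundant and 1 at 0 in WT hepatocytes replicate 2, summed to 19.8, 15.03 and 30.4 FPKM in WT and 69.1, 130.4 and 103 in Cdk1 Liv-/- hepatocytes, with 3 of the 6 tested called higher and a median log2 fold change of 1.05. For the 11 stellate cell markers, with Col3a1 the most abundant and none at 0, the sums were 261, 157 and 569.8 and 154, 133 and 121, with 1 called lower and a median of -0.89 (4 and -0.97 with median-ratio size factors, 0 and -0.44 without WT hepatocytes replicate 3). Of all genes 4.20% were called higher and 2.17% lower in hepatocytes. Among the libraries, 2 stood apart. In WT hepatocytes replicate 3 the 11 Kupffer cell and macrophage markers summed to 689 FPKM, against 374 and 203 in the other WT hepatocyte libraries, and the 11 erythroid markers to 573, against 133 and 95.7. Cdk1 Liv-/- whole liver replicate 3 held Xist at 158 FPKM and had a summed level of 0 for its Y-linked genes, although the methods name male mice; elsewhere Xist was at most 0.14 FPKM.

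Hamp and Hamp2 lie side by side on the minus strand of chromosome 7 (Hamp, chr7:30942368-30944032; Hamp2, chr7:30922372-30924681; GRCm38), and their coding sequences are 92.5% identical. Their promoters are shown because both genes rose in both compartments, though in whole liver by 5.40 for Hamp and 3.40 for Hamp2 on the log2 scale. The 250 bases before each start site, from RefSeq on GRCm38.p6 (Hamp, chr7:30944030-30944279; Hamp2, chr7:30924182-30924431; both minus strand), are 89.7% identical. They were searched on both strands for GGCGCC, the core of the BMP response element, for TTCNNNGAA, the STAT palindrome, and for CACGTG, the E-box, and matches are in capitals.
Hamp: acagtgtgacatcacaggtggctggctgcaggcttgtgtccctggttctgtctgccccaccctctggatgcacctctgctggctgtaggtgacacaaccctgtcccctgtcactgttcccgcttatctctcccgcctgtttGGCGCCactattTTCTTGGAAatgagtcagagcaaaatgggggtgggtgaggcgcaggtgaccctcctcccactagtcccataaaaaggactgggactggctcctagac
Hamp2: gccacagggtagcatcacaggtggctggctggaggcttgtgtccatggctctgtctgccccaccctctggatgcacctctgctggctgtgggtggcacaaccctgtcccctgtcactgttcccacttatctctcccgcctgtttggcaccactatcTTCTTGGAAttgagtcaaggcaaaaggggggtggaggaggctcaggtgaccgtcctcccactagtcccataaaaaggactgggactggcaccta
The Hamp window held GGCGCC at -109 and TTCTTGGAA at -97 from the start site, whereas the Hamp2 window held TTCTTGGAA at -94 and no GGCGCC. Of all 32851 promoter windows of this length, 9.59% held GGCGCC, 7.02% TTCNNNGAA and 6.02% CACGTG. Among the other genes of the set with an entry, GGCGCC occurred at -89 in 1 of 2 Tfrc windows and CACGTG at -127 in the Bmp6 window. Tfr2, Ftl1, Hfe and Fth1 windows held none of the 3, and Trf and Slc40a1 had no entry. These are matches of letters only. RefSeq starts Hamp2 and Bmp6 downstream of the gene starts given here, so the windows of both lie inside those gene bounds. The Tfr2 windows at chr5:137570470-137570719 and chr5:137570725-137570974 and the Fth1 window at chr19:9982396-9982645 also lie inside their genes. The Tfrc window at chr16:32608872-32609121 lies partly inside its gene.

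Hepcidin itself showed the greatest change of the set. Hamp stood at 0.89, 1.14 and 0.57 FPKM in WT hepatocytes and at 202, 110.3 and 71.9 in Cdk1 Liv-/- hepatocytes. Whole-liver values were 0.45, 0.59 and 1.49 FPKM in WT and 81.0, 36.8 and 50.2 in Cdk1 Liv-/-. Group means were 0.867 ± 0.286 and 128 ± 67.0 FPKM in hepatocytes and 0.843 ± 0.564 and 56.0 ± 22.7 in whole liver (SD, n = 3). The WT libraries were all low and the Cdk1 Liv-/- libraries all high, with no overlap in either compartment. The ratio of group means was 148 in hepatocytes and 66.4 in whole liver. On the log2(FPKM + 0.5) scale, which understates changes of genes this low in WT, Hamp rose by 6.45 in hepatocytes (SE 0.38, adjusted p = 0.0011, higher in 3 of 3 libraries) and by 5.40 in whole liver (SE 0.39, adjusted p = 0.00084, higher in 3 of 3). Without WT hepatocytes replicate 3 the hepatocyte rise was 6.28 (adjusted p = 0.00619, 4.15e-06 to 0.0144 over the alternatives), and without Cdk1 Liv-/- whole liver replicate 3 the whole-liver rise was 5.44 (adjusted p = 0.00684, 1.44e-05 to 0.0138). The WT values rest on few reads, an estimated 14.9, 14.7 and 9.04 in the hepatocyte libraries and 6.29, 8.27 and 21.7 in whole liver, against 2744, 1464 and 838 in Cdk1 Liv-/- hepatocytes and 1299, 585 and 812 in Cdk1 Liv-/- whole liver. The hepatocyte and whole-liver responses differed by 1.05 on the log2 scale, which was not past the threshold (adjusted p = 0.298).

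Hamp2, the mouse duplicate of hepcidin, rose in both compartments, as Hamp did. It stood at 5.18, 4.95 and 2.88 FPKM in WT hepatocytes and at 629, 343 and 189.7 in Cdk1 Liv-/- hepatocytes. Its whole-liver level was 3.37, 3.71 and 5.15 FPKM in WT and 85.6, 14.5 and 83.2 in Cdk1 Liv-/-. The genotypes did not overlap, and within Cdk1 Liv-/- whole liver replicate 2 was far below the other libraries. Hamp2 rose by 6.19 in hepatocytes (SE 0.45, adjusted p = 0.00164) and by 3.40 in whole liver (SE 0.70, adjusted p = 0.0169). The hepatocyte rise was 5.95 without WT hepatocytes replicate 3 (adjusted p = 0.00866, 7.21e-05 to 0.0139 over the alternatives), and the whole-liver rise was 4.23 without Cdk1 Liv-/- whole liver replicate 2 (adjusted p = 0.00121) and 2.99 without replicate 3 (adjusted p = 0.0522, at most 0.0642). The difference between these responses was 2.79 (adjusted p = 0.0972), at the edge of the threshold of 0.1, and it was not past it in 15 of 21 alternative fits. Leaving out any 1 library ended it, apart from WT hepatocytes replicate 2, Cdk1 Liv-/- hepatocytes replicate 3 and Cdk1 Liv-/- whole liver replicate 1. Its value was 2.56 without WT hepatocytes replicate 3 (adjusted p = 0.179), 1.96 without Cdk1 Liv-/- whole liver replicate 2 (adjusted p = 0.125) and 3.20 without replicate 3 (adjusted p = 0.107), and adjusted p ran from 0.0877 to 0.185 over the alternatives. Per length, Hamp2 exceeded Hamp by 5.82, 4.34 and 5.05 times in the WT hepatocyte libraries and by 3.11, 3.11 and 2.64 times in the Cdk1 Liv-/- hepatocyte libraries. In whole liver the same ratio was 7.49, 6.29 and 3.46 in WT and 1.06, 0.395 and 1.66 in Cdk1 Liv-/-, so Hamp exceeded Hamp2 in Cdk1 Liv-/- replicate 2. Of the 75-base windows in the transcripts, 3.87% of those in Hamp also occur in Hamp2.

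**Figure D1:**
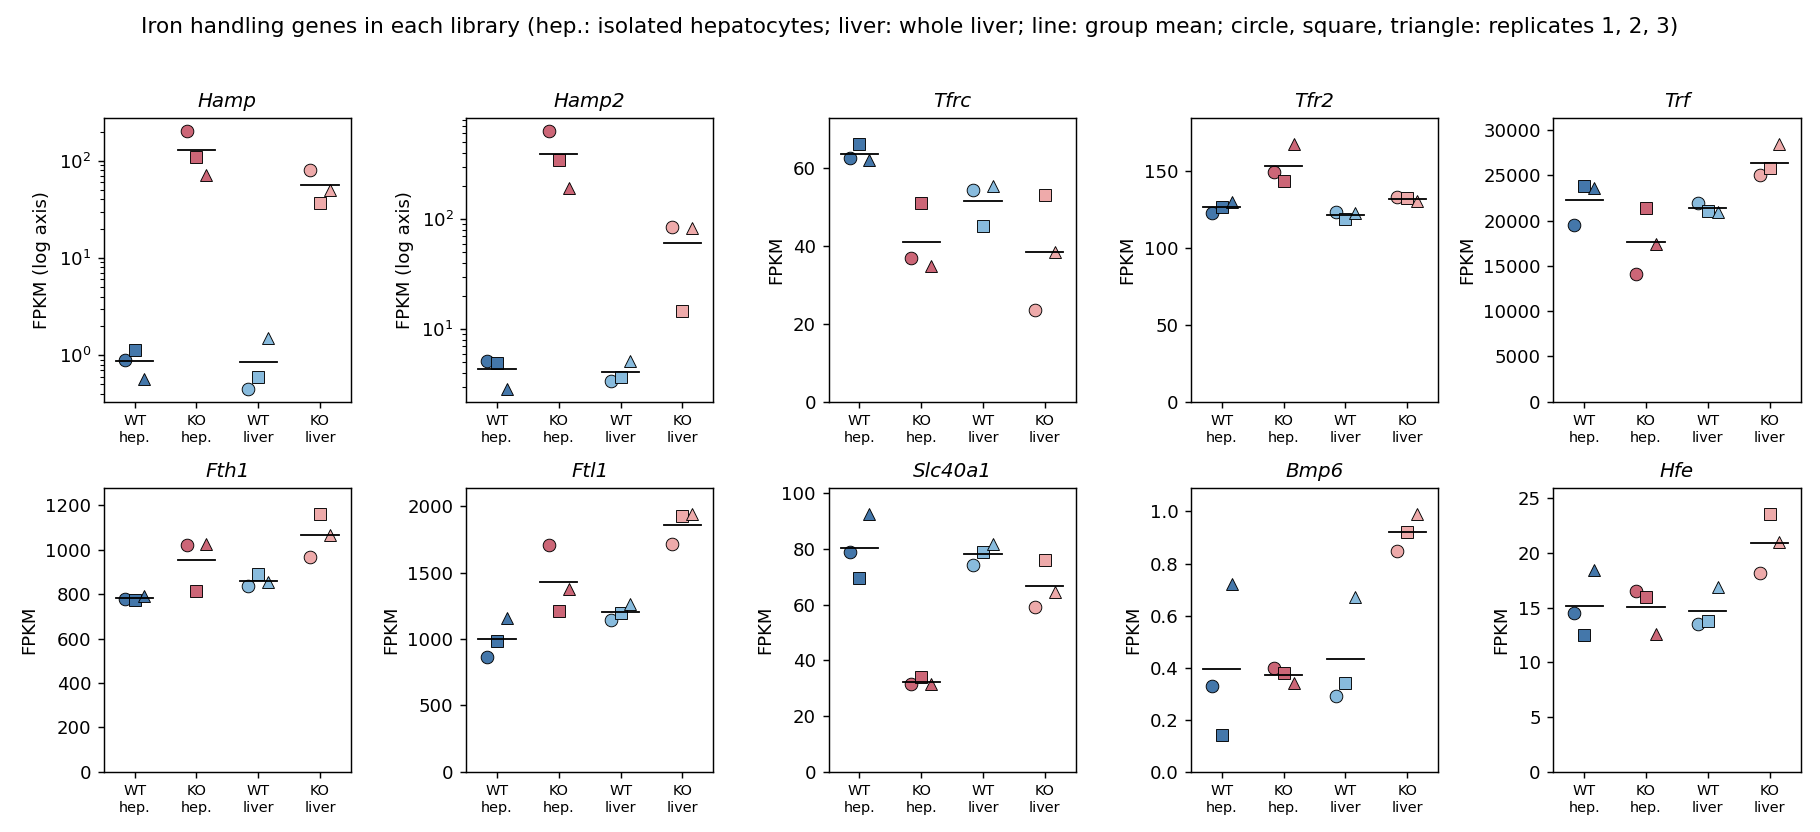
FPKM of the 10 genes in each of the 12 libraries (vertical axis, log scale for Hamp and Hamp2), by group on the horizontal axis; KO is Cdk1 Liv-/-, hep. is isolated hepatocytes, lines are group means and symbols are replicates 1, 2 and 3. Hamp and Hamp2 separate by genotype in both compartments, and Slc40a1 lies between 31.3 and 34.0 FPKM in Cdk1 Liv-/- hepatocytes, below every other library.

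A gene was called when its adjusted p was at most 0.1 and its log2 fold change at least 1 in size. In hepatocytes 2 of the 10 genes were called higher, Hamp and Hamp2, against 4.20% of the 17386 genes tested, and 1 was called lower, Slc40a1, against 2.17%. In whole liver 2 were called higher, again Hamp and Hamp2, against 4.59%, and 0 lower, against 1.00%. By adjusted p alone, 3 were higher and 2 lower in hepatocytes, against 12.1% and 6.61% of all genes, and 7 were higher and 0 lower in whole liver, against 38.0% and 7.53%. Without WT hepatocytes replicate 3 the first of these counts were 2 and 1, and without Cdk1 Liv-/- whole liver replicate 3 the others were 5 and 0. The median log2 fold change of the 10 was 0.15 in hepatocytes and 0.40 in whole liver, beside 0.049 and 0.18 over all genes tested. The whole-liver comparison was thus shifted upward as a whole: after scaling by median-ratio size factors the median of all genes was 0.013, the calls there went from 798 higher and 174 lower to 513 and 242, and by adjusted p alone 4 of the 10 genes were higher and 1 lower. For the difference between compartments, 1 of the 10 genes was past the threshold upward (Hamp2) and 1 downward (Slc40a1), against 2.35% and 7.49% of all genes, whose split of 409 higher and 1303 lower became 548 and 492 with that scaling as their median went from -0.11 to 0.011. These shares of all genes depend on single libraries. The split was 35 and 43 without WT whole liver replicate 1, and 149 and 266 without Cdk1 Liv-/- whole liver replicate 2. It was 225 and 693 without WT hepatocytes replicate 3, 407 and 2232 without WT hepatocytes replicate 2, and 201 and 455 with the replicate number as a block.

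**Figure D2:**
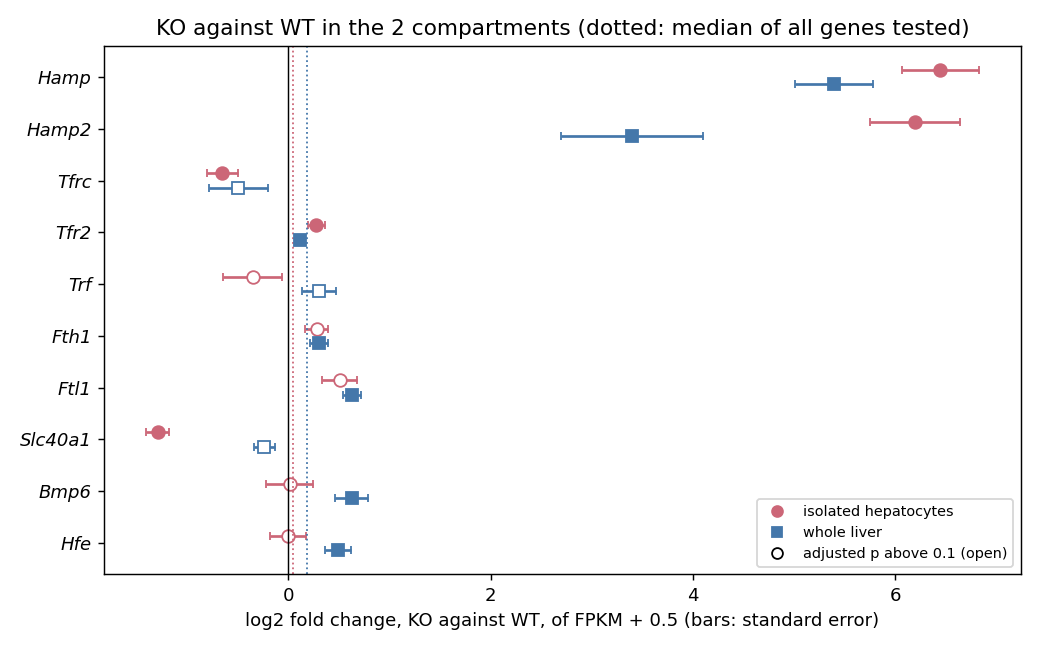
Log2 fold change of FPKM + 0.5, KO (Cdk1 Liv-/-) against WT, with its standard error, for each gene in isolated hepatocytes (circles) and whole liver (squares); filled symbols have an adjusted p of at most 0.1 and dotted lines mark the median of all genes tested. Hamp stands at 6.45 and 5.40, and Slc40a1 at -1.29 in hepatocytes and -0.24 in whole liver.

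Bmp6 (chr13:38345107-38500302, plus strand), a BMP ligand made mainly by sinusoidal endothelial cells, was the least abundant of the 10 by mean in every group. It stood at 0.33, 0.14 and 0.72 FPKM in WT hepatocytes and at 0.4, 0.38 and 0.34 in Cdk1 Liv-/- hepatocytes. Whole liver held it at 0.29, 0.34 and 0.67 FPKM in WT and 0.85, 0.92 and 0.99 in Cdk1 Liv-/-. The hepatocyte groups overlapped (log2 fold change 0.013, adjusted p = 0.98), whereas in whole liver every Cdk1 Liv-/- library was above every WT library and Bmp6 rose by 0.63 (SE 0.16, adjusted p = 0.0319; 0.59 and 0.0898 without Cdk1 Liv-/- whole liver replicate 3, 0.0117 to 0.0956 over the alternatives). In WT, replicate 3 was the highest library of both compartments. The difference between compartments was -0.61 (adjusted p = 0.253), and without WT hepatocytes replicate 2 it passed the test (-0.83, adjusted p = 0.0826). The 11 sinusoidal endothelial markers, with Stab1 the most abundant and none at 0, summed to 179, 123 and 347 FPKM in WT hepatocytes and 86.3, 54.9 and 64.3 in Cdk1 Liv-/- hepatocytes, and to 171, 199 and 239.6 and 216, 269 and 219.8 in whole liver. In hepatocytes 10 of the 11 were called lower (8 without WT hepatocytes replicate 3), against 2.17% of all genes. In whole liver 0 were called either way. The part of these endothelial markers in the result was not tested. In bulk RNA, fewer cells of a type and less RNA per cell cannot be told apart.

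HFE and transferrin receptor 2 sit at the hepatocyte surface and feed iron status into hepcidin transcription. Hfe (chr13:23702034-23710854, minus strand) stood at 14.5, 12.5 and 18.4 FPKM in WT hepatocytes and at 16.5, 16.0 and 12.6 in Cdk1 Liv-/- hepatocytes. The whole-liver libraries held 13.5, 13.8 and 16.9 FPKM in WT and 18.2, 23.5 and 21.0 in Cdk1 Liv-/-. The hepatocyte groups overlapped (log2 fold change -0.0031, adjusted p = 0.996), and in whole liver they did not, with a rise of 0.49 (SE 0.13, adjusted p = 0.032). The Hfe rise did not pass with median-ratio size factors (0.28, adjusted p = 0.169). It did not pass either when WT whole liver replicate 1 was left out (0.43, adjusted p = 0.105, from 0.023 over the alternatives). The difference between compartments was -0.49 (adjusted p = 0.217). Tfr2 (chr5:137569840-137587481, plus strand) stood at 122, 126 and 129 FPKM in WT hepatocytes and at 149, 143 and 167 in Cdk1 Liv-/- hepatocytes. In whole liver it stood at 123, 118 and 123 FPKM in WT and 133, 132 and 131 in Cdk1 Liv-/-. The genotypes did not overlap, but the differences were small, 0.28 (SE 0.081, adjusted p = 0.0821) and 0.12 (SE 0.043, adjusted p = 0.0784). The hepatocyte difference did not pass in 9 of 16 alternative fits and whenever any library but Cdk1 Liv-/- replicate 2 was left out (0.14 and 0.206 with WT replicate 3 or 1 absent; 0.0118 to 0.226 over the alternatives). The whole-liver difference did not pass when any library but Cdk1 Liv-/- replicate 2 was left out (adjusted p = 0.14 without replicate 3), and in whole liver the sign turned with median-ratio size factors (-0.10, adjusted p = 0.21). It did not pass either with a filter of 1 FPKM, without the trend, in 1 fit of all 12 libraries or with the replicate number as a block (adjusted p = 0.104, 0.136, 0.205 and 0.169). Of the 16 alternative fits, 9 ended this difference and 1 turned its sign.

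Of the 22 other genes of hepcidin control, such as BMP ligands, their receptors, SMAD proteins, hemojuvelin and the protease Tmprss6, 21 could be tested. In hepatocytes 1 was called higher and 2 lower, against 4.20% and 2.17% of all genes, and in whole liver 1 was called higher and 0 lower, against 4.59% and 1.00%. Without WT hepatocytes replicate 3 the hepatocyte counts were 1 and 1. The stress cytokine Gdf15 rose by 2.84 in hepatocytes (adjusted p = 0.00614) and by 2.49 in whole liver (adjusted p = 0.0031), from 4.07, 2.14 and 2.64 to 36.2, 22.2 and 16.3 FPKM and from 1.21, 1.29 and 2 to 11.4, 14.2 and 7.2. The BMP ligands Bmp2 (-1.44, adjusted p = 0.0414) and Bmp5 (-1.39, adjusted p = 0.0809) fell in hepatocytes. The sinusoidal endothelial markers had a median log2 fold change of -1.66 there (-1.21 without WT hepatocytes replicate 3), and their part in the result was not tested. The Bmp2 call ended without WT hepatocytes replicate 1 (-1.46, adjusted p = 0.119) or Cdk1 Liv-/- hepatocytes replicate 2 or 3 (-1.28 and -1.45, adjusted p = 0.112 each; from 0.00273 over the alternatives). The Bmp5 call ended without WT hepatocytes replicate 1 or 3 (-1.26 and -1.08, adjusted p = 0.204 and 0.169) or any 1 Cdk1 Liv-/- hepatocyte library (adjusted p = 0.15 to 0.206; from 0.00832 over the alternatives). In whole liver neither passed the test (0.056 and -0.11), Bmp2 turned negative with median-ratio size factors (-0.14), and Bmp5 then passed (-0.31, adjusted p = 0.0295), as it did with the per-gene test and q-values (adjusted p = 0.0781). The compartments differed by -1.50 for Bmp2 (adjusted p = 0.0595) and -1.28 for Bmp5 (adjusted p = 0.112). The Bmp2 difference did not pass without WT whole liver replicate 1 or 2 (-1.36 and -1.54, adjusted p = 0.154 and 0.11), without Cdk1 Liv-/- whole liver replicate 2 or 3 (-1.52 and -1.45, adjusted p = 0.113 and 0.106) or without both libraries that stood apart (-1.16, adjusted p = 0.126; from 0.0134 over the alternatives). Tmprss6, which cleaves hemojuvelin and was the most abundant of this list, stood at 133 FPKM on average in WT hepatocytes and 119.8 in Cdk1 Liv-/- hepatocytes, and did not pass the test in either compartment (adjusted p = 0.22 and 0.178), although it did in both with the per-gene test and q-values (adjusted p = 0.0987 and 0.0963), and in whole liver with median-ratio size factors (-0.46, adjusted p = 0.0605) and without Cdk1 Liv-/- replicate 1 (-0.34, adjusted p = 0.0799).

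BMP signals through SMAD proteins induce a set of target genes, of which 8 were tested. In hepatocytes 0 of 8 were higher and 3 lower by adjusted p (2 lower without WT hepatocytes replicate 3), where 12.1% and 6.61% of all genes were. Against 2.17% of all genes, 1 of the 8 was called lower, the inhibitor Smad6 (-1.35, adjusted p = 0.058). That call ended without WT hepatocytes replicate 1 (-1.38, adjusted p = 0.143) or Cdk1 Liv-/- hepatocytes replicate 2 or 3 (-1.30 and -1.20, adjusted p = 0.145 and 0.161; from 0.00662 over the alternatives). In the same libraries 10 of 11 sinusoidal endothelial markers were called lower, with a median log2 fold change of -1.66 (8 and -1.21 without WT hepatocytes replicate 3); their part in the result was not tested. In whole liver 7 of 8 were higher by adjusted p, where 38.0% of all genes were, and 0 were called at a log2 fold change of 1. Of the 7, Smad6 (0.44, adjusted p = 0.0942) did not pass in 9 of 16 alternative fits. These left out any 1 whole-liver library, used median-ratio size factors (0.25, adjusted p = 0.301) or 1 fit of all 12 libraries (adjusted p = 0.278), or had no filter (adjusted p = 0.176). With median-ratio size factors 4 of 8 were higher there, and without Cdk1 Liv-/- whole liver replicate 3 also 4. In the same whole-liver libraries the 11 stellate cell markers, with Col3a1 the most abundant and none at 0, summed to 561, 559 and 636 FPKM in WT and 942, 1129 and 905 in Cdk1 Liv-/-, with 2 called higher. The 7 cholangiocyte markers, with Spp1 the most abundant and none at 0 in these libraries, summed to 60.4, 63.6 and 46.8 FPKM and 280.3, 145 and 273, with 4 of the 6 tested called higher (3 with median-ratio size factors or without Cdk1 Liv-/- replicate 3). Of all genes 4.59% were called higher in whole liver. The part of either marker list in the result was not tested. Id2, the most abundant of the BMP-SMAD targets, stood at 62.8, 73.9 and 60.0 FPKM in WT and 114, 121 and 90.3 in Cdk1 Liv-/- whole livers, a rise of 0.71 (adjusted p = 0.013), and did not pass the test in hepatocytes (0.20, adjusted p = 0.263), except without Cdk1 Liv-/- hepatocytes replicate 1 (0.30, adjusted p = 0.0856); the compartments differed by -0.52 (adjusted p = 0.116). The median log2 fold change of the 8 was -0.23 in hepatocytes and 0.56 in whole liver. Of the 8, 4 differed between the compartments past the threshold, each with the lower value in hepatocytes, where 7.49% of all genes did so (1303 of 17386). With median-ratio size factors 3 of the 8 did, where 492 of all genes did. Without WT hepatocytes replicate 3 the count was also 3, where 693 of all genes did. Without WT whole liver replicate 1 only 43 of all genes did. The count of the 8 was not taken in that fit, where the Smad6 difference did not pass (-1.64, adjusted p = 0.14).

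Of 14 inflammatory inducers of hepcidin and their signalling genes, 12 could be tested, and 2 were called higher and 2 lower in hepatocytes, against 4.20% and 2.17% of all genes, and 4 higher and 0 lower in whole liver, against 4.59% and 1.00%. Without WT hepatocytes replicate 3 only 1 was called higher in hepatocytes, and with median-ratio size factors 1 was called lower in whole liver. Lif, an interleukin-6 family cytokine, stood at 0.01, 0.01 and 0.01 FPKM in WT hepatocytes and 1.51, 1.59 and 1.47 in Cdk1 Liv-/- hepatocytes and rose by 1.99 (adjusted p = 0.00062), and by 2.33 in whole liver (adjusted p = 0.000785). With WT values this near 0 the size depends on the pseudocount, from 1.32 to 3.88 in hepatocytes and from 1.63 to 4.10 in whole liver over the alternatives. Socs3, a feedback inhibitor of STAT3 signalling, rose by 1.12 in hepatocytes (adjusted p = 0.0811) and 1.81 in whole liver (adjusted p = 0.00118). Its hepatocyte call ended when any library but Cdk1 Liv-/- replicate 1 was left out (adjusted p = 0.111 to 0.181; 1.11 and 0.17 without WT replicate 3; from 0.0114 over the alternatives). Osmr, the receptor of oncostatin M, was called in whole liver (1.51, adjusted p = 0.00447), with 0.77 in hepatocytes (adjusted p = 0.151; 0.0543 in 1 fit of all 12 libraries, at most 0.317 over the alternatives) and a difference of -0.74 (adjusted p = 0.254). Stat3 itself, the most abundant of the list, rose by 0.59 in hepatocytes (adjusted p = 0.0241) and 0.47 in whole liver (adjusted p = 0.0528), where the rise did not pass with median-ratio size factors (0.25, adjusted p = 0.27) and without WT replicate 1 or 2 or Cdk1 Liv-/- replicate 1 or 2 (adjusted p = 0.15, 0.14, 0.126 and 0.123). Il1b stood at 4.43, 3.83 and 4.78 FPKM in WT hepatocytes and at 0.69, 0.69 and 0.72 in Cdk1 Liv-/- hepatocytes, a fall of 2.01 on the log2 scale (adjusted p = 0.00159), and rose in whole liver by 1.48 (adjusted p = 0.038; 1.42 and 0.114 without WT replicate 1, 1.36 and 0.111 without WT replicate 2). The compartments differed by -3.49 (adjusted p = 0.0103). Inhbb, which encodes a subunit of activin B, fell in hepatocytes from 14.3, 13.7 and 12.8 to 1.92, 2.54 and 1.33 FPKM (-2.56, adjusted p = 0.00196), with 0.28 in whole liver (adjusted p = 0.412) and a difference of -2.84 (adjusted p = 0.00702). Il6 itself, named after its values were seen, stood at 0.18, 0.22 and 0.26 FPKM in WT hepatocytes and 0.03, 0.01 and 0.06 in Cdk1 Liv-/- hepatocytes and fell there (-0.43, adjusted p = 0.0293), with a size from -1.27 to -0.24 that depends on the pseudocount, but did not pass in 1 fit of all 12 libraries (adjusted p = 0.201, from 0.0223 over the alternatives). In whole liver it was at most 0.86 FPKM and did not pass the test (0.44, adjusted p = 0.287), with a difference of -0.87 (adjusted p = 0.139). In the same libraries the median over Kupffer cell and macrophage markers was a log2 fold change of -1.11 for hepatocytes (-0.71 without WT hepatocytes replicate 3), where 10 of 11 sinusoidal endothelial markers were called lower (8 without that library). In whole liver 5 of 9 neutrophil and monocyte markers were called higher, or 4 with median-ratio size factors and 2 without Cdk1 Liv-/- whole liver replicate 3. The part of these markers in the result was not tested. Of 17 acute phase genes, 8 were called higher in each compartment, against 4.20% of all genes in hepatocytes and 4.59% in whole liver, where 6 were with median-ratio size factors.

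**Figure D3:**
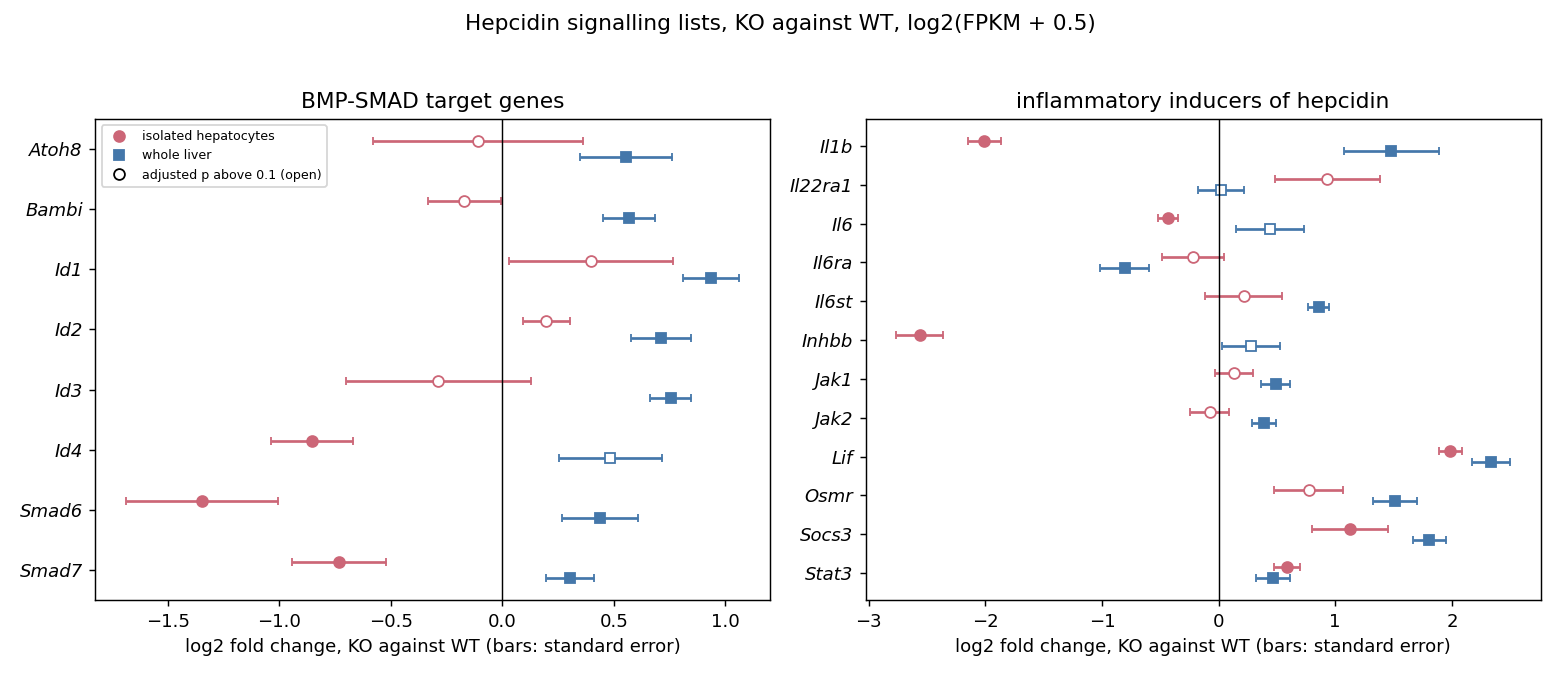
Log2 fold change of FPKM + 0.5, KO (Cdk1 Liv-/-) against WT, with its standard error, in isolated hepatocytes (circles) and whole liver (squares). Left are the 8 BMP-SMAD target genes, and right the 12 tested genes among the inflammatory inducers of hepcidin and their signalling genes. Filled symbols have an adjusted p of at most 0.1. Smad6 stands at -1.35 in hepatocytes and 0.44 in whole liver, and Il1b at -2.01 and 1.48.

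Transferrin carries iron in plasma and is made by hepatocytes, and transferrin receptor 1 (Tfrc) takes it up. Trf (chr9:103204001-103230444, minus strand) was the most abundant of the 10 genes in every library. It stood at 19516, 23838 and 23551 FPKM in WT hepatocytes and at 14085, 21424 and 17426 in Cdk1 Liv-/- hepatocytes. Whole-liver values were 21993, 21105 and 20911 FPKM in WT and 25005, 25771 and 28459 in Cdk1 Liv-/-. The hepatocyte groups overlapped, whereas in whole liver every Cdk1 Liv-/- library was above every WT library, yet neither difference passed the test (-0.35, adjusted p = 0.467, and 0.31, adjusted p = 0.211). The difference between compartments was -0.66 (adjusted p = 0.17), which passed with a filter of 1 FPKM (adjusted p = 0.0934) and without the trend (adjusted p = 0.0952; at most 0.621 over the alternatives). In whole liver Trf did pass in 4 of 16 alternatives, with a filter of 1 FPKM (adjusted p = 0.045), without the trend (adjusted p = 0.0255), with the per-gene test and q-values (adjusted p = 0.0139) and without Cdk1 Liv-/- replicate 2 (0.32, adjusted p = 0.0746; at most 0.895 over the alternatives), but with median-ratio size factors its value was 0.084 (adjusted p = 0.803). The level of Trf is uncertain, since 55.8% of its 75-base windows also occur in transcripts of the gene Gm20425.

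The message of Tfrc carries iron responsive elements in its 3′ UTR, hairpins whose loop letters CAGTGN are shown in capitals between the arms of the stem. They were found in the GENCODE M21 transcript at chr16:32631221-32631246, chr16:32631600-32631625, chr16:32631665-32631690 and chr16:32631712-32631737 (GRCm38, plus strand), and the same search matched 0.68% of the 21166 genes with a 3′ UTR.
Tfrc element 1: ttatcggaagCAGTGCcttccataat
Tfrc element 2: ttatcgggagCAGTGTcttccataat
Tfrc element 3: atatcggagaCAGTGAtctccatatg
Tfrc element 4: ttatcgggaaCAGTGTttcccataat
Tfrc (chr16:32608920-32632794, plus strand) stood at 62.7, 66.3 and 62.2 FPKM in WT hepatocytes and at 37.0, 51.2 and 34.8 in Cdk1 Liv-/- hepatocytes. Its whole-liver level was 54.4, 45.1 and 55.5 FPKM in WT and 23.5, 53.1 and 38.6 in Cdk1 Liv-/-. In hepatocytes every Cdk1 Liv-/- library was below every WT library, and in whole liver the groups overlapped through Cdk1 Liv-/- replicate 2. Tfrc fell by 0.65 on the log2 scale in hepatocytes (SE 0.15, adjusted p = 0.0452), and in whole liver the log2 fold change was -0.49 (adjusted p = 0.235), a difference of -0.16 (adjusted p = 0.827). The hepatocyte fall did not pass without WT replicate 1, 2 or 3 or Cdk1 Liv-/- replicate 1 or 3 (adjusted p of 0.124, 0.112, 0.103, 0.121 and 0.113) and without the filter on low values (0.108), with a range from 0.00844 over all alternatives, and without Cdk1 Liv-/- whole liver replicate 2 Tfrc passed the test in whole liver (-0.76, adjusted p = 0.0687). Erythroid precursors carry much transferrin receptor, and the 11 erythroid markers found, with Hbb-bs the most abundant, summed to 133, 95.7 and 573 FPKM in WT hepatocytes, 69.0, 91.1 and 20.5 in Cdk1 Liv-/- hepatocytes, 1087, 1212 and 2153 in WT and 1152, 1759 and 1445 in Cdk1 Liv-/- whole livers, with 1 marker at 0 in Cdk1 Liv-/- hepatocytes replicate 1 and none at 0 elsewhere. Of the 10 that could be tested, 1 was called lower in each compartment, against 2.17% of all genes in hepatocytes and 1.00% in whole liver. With median-ratio size factors 3 were called lower in hepatocytes and 2 in whole liver. The median log2 fold change of these markers in hepatocytes was -1.16, or -0.66 without WT hepatocytes replicate 3, and their part in the result was not tested.

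Of 11 other genes of iron import and scavenging, 10 could be tested, with 3 called higher and 0 lower in hepatocytes, against 4.20% and 2.17% of all genes, and 4 higher and 0 lower in whole liver, against 4.59% and 1.00%, or 3 and 0 there without Cdk1 Liv-/- whole liver replicate 3. Lcn2, which binds bacterial siderophores, stood at 8.37, 10.1 and 9.28 FPKM in WT hepatocytes and 450.1, 559 and 963 in Cdk1 Liv-/- hepatocytes and rose by 6.003 (adjusted p = 0.000491), and by 5.19 in whole liver (adjusted p = 0.000172). Scara5, a receptor for ferritin, rose from 0.05, 0.02 and 0.01 to 2.15, 3.81 and 8.48 FPKM in hepatocytes (3.15, adjusted p = 0.00934) and from 0.02, 0.03 and 0.02 to 1.13, 0.59 and 0.87 in whole liver (1.36, adjusted p = 0.00319). Values this near 0 depend on the pseudocount, and over the alternatives Scara5 ran from 2.35 to 5.07 in hepatocytes and from 0.85, under the log2 fold change of 1, to 2.93 in whole liver. Steap4, a metalloreductase, rose by 1.54 (adjusted p = 0.00918) and 1.48 (adjusted p = 0.00155). Ltf, the lactoferrin of neutrophils, was called in whole liver alone (1.41, adjusted p = 0.0431; 0.15 in hepatocytes, with a difference of -1.26, adjusted p = 0.289), and that call ended without WT whole liver replicate 1 or 2 or Cdk1 Liv-/- whole liver replicate 2 or 3 (adjusted p = 0.102, 0.122, 0.108 and 0.117; 1.19 without the last; from 0.00517 over the alternatives). The 9 neutrophil and monocyte markers, with S100a9 the most abundant, summed to 70.4, 43.9 and 66.9 FPKM in WT and 90.04, 302 and 244 in Cdk1 Liv-/- whole livers, with none at 0, and 5 of the 9 were called higher there, or 2 without Cdk1 Liv-/- whole liver replicate 3; their part in the result was not tested.

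Ferritin stores iron in shells of heavy (Fth1) and light (Ftl1) chains, and both messages carry an iron responsive element in the 5′ UTR, at chr19:9982734-9982759 on the plus strand and chr7:45459780-45459805 on the minus strand (GENCODE M21, GRCm38). The search matched 0.146% of the 21181 genes with a 5′ UTR, and capitals mark the loop.
Fth1 element: cctgcttcaaCAGTGCttgaacggaa
Ftl1 element: cttgcttcaaCAGTGTttgaacggaa
Fth1 (chr19:9980598-9985098, plus strand) stood at 777, 775 and 790.2 FPKM in WT hepatocytes and at 1019.7, 814 and 1025 in Cdk1 Liv-/- hepatocytes. Whole liver held it at 835, 891 and 854 FPKM in WT and 966, 1160.1 and 1066 in Cdk1 Liv-/-. The genotypes did not overlap in either compartment, yet in hepatocytes the difference of 0.28 did not pass the test (adjusted p = 0.184), and in whole liver Fth1 rose by 0.30 (SE 0.087, adjusted p = 0.043). Relative to all genes that rise was small, 0.082 after median-ratio size factors (adjusted p = 0.48), and it did not pass either without Cdk1 Liv-/- replicate 3 (0.30, adjusted p = 0.108), WT replicate 1 (0.28, adjusted p = 0.142) or WT replicate 3 (0.30, adjusted p = 0.116), over a range from 0.0238. Ftl1 (chr7:45457944-45459884, minus strand) stood at 867, 987 and 1158 FPKM in WT hepatocytes and at 1705, 1215 and 1378 in Cdk1 Liv-/- hepatocytes. The whole-liver libraries held 1142, 1199.9 and 1262 FPKM in WT and 1717, 1928 and 1942 in Cdk1 Liv-/-. The groups again did not overlap, and Ftl1 rose in whole liver by 0.63 (SE 0.086, adjusted p = 0.00551; 0.41 and 0.0238 after median-ratio size factors), while the hepatocyte difference of 0.51 did not pass the test (adjusted p = 0.118). In hepatocytes Ftl1 did pass with a filter of 1 FPKM (adjusted p = 0.0837), after rescaling to the same sum (adjusted p = 0.0696) and in 1 fit of all 12 libraries (adjusted p = 0.0231), and Fth1 did in that fit (adjusted p = 0.0742) and without Cdk1 Liv-/- hepatocytes replicate 2 (0.39, adjusted p = 0.0584). Without Cdk1 Liv-/- whole liver replicate 3 the Ftl1 rise was 0.60 (adjusted p = 0.0249, 0.0028 to 0.0332 over the alternatives). The compartments differed by -0.025 for Fth1 (adjusted p = 0.943) and by -0.12 for Ftl1 (adjusted p = 0.756). The Ftl1 level is uncertain, since 42.3% of its 75-base windows also occur in 6 other genes, of which Ftl1-ps1 shares the most windows. Of the 6 other storage and chaperone genes, 5 could be tested, and 3 were higher and 0 lower by adjusted p in hepatocytes and 4 higher and 0 lower in whole liver (2 and 0 with median-ratio size factors), with 0 called. Of all genes 12.1% were higher in hepatocytes and 38.0% in whole liver. Pcbp1, an iron chaperone and the most abundant of them, stood at 80.4 FPKM on average in WT and 91.2 in Cdk1 Liv-/- whole livers (0.18, adjusted p = 0.0617), a rise that did not pass without WT replicate 1 or 3 or Cdk1 Liv-/- replicate 2 or 3 (adjusted p = 0.181, 0.141, 0.111 and 0.133) and whose sign turned with median-ratio size factors (-0.040).

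Ferroportin, encoded by Slc40a1, is the only known iron exporter of mammalian cells and is abundant in macrophages. Its 5′ UTR also carries an iron responsive element (chr1:45925466-45925491, GRCm38, minus strand).
Slc40a1 element: acttcagctaCAGTGTtagctaagtt
Slc40a1 (chr1:45908068-45926523, minus strand) stood at 78.9, 69.4 and 92.4 FPKM in WT hepatocytes and at 31.3, 34.0 and 31.5 in Cdk1 Liv-/- hepatocytes. In whole liver it stood at 74.1, 78.7 and 81.6 FPKM in WT and 59.2, 76.1 and 64.4 in Cdk1 Liv-/-. The Cdk1 Liv-/- hepatocyte libraries lay close together and below every other library, and the whole-liver groups overlapped. Slc40a1 fell by 1.29 on the log2 scale in hepatocytes (SE 0.12, adjusted p = 0.00291; -1.19 and 0.00774 without WT replicate 3, at most 0.0324 over the alternatives), and in whole liver the log2 fold change was -0.24 (adjusted p = 0.12), which passed the test after median-ratio size factors (-0.46, adjusted p = 0.0198), with the per-gene test and q-values (adjusted p = 0.0703) and without Cdk1 Liv-/- replicate 2 (-0.34, adjusted p = 0.0242). The difference between compartments was -1.06 (adjusted p = 0.0218) and -0.97 (adjusted p = 0.0605) without both libraries that stood apart (0.00626 to 0.0731 over the alternatives). The 11 Kupffer cell and macrophage markers, with Cd5l the most abundant and none at 0, summed to 374, 203 and 689 FPKM in WT hepatocytes and 228, 169.8 and 149 in Cdk1 Liv-/- hepatocytes, and to 539, 593 and 600.1 and 688, 945 and 716 in whole liver. In hepatocytes 1 of the 11 markers was called lower, against 2.17% of all genes, and their median log2 fold change was -1.11. With median-ratio size factors 5 were called lower. Without WT hepatocytes replicate 3 the count was 0, with a median of -0.71. The part of these markers in the result was not tested.

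**Figure D4:**
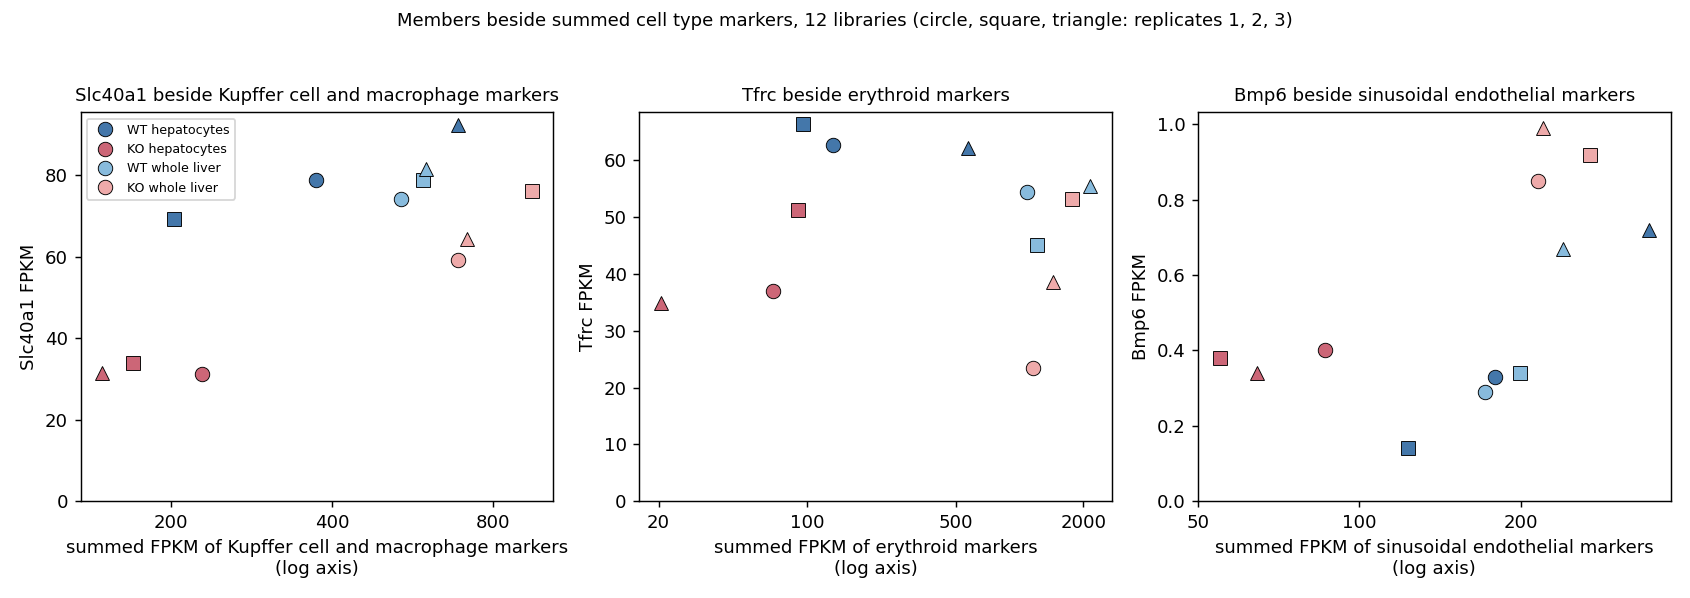
FPKM of Slc40a1, Tfrc and Bmp6 (vertical axes) against the summed FPKM of Kupffer cell and macrophage, erythroid and sinusoidal endothelial markers (horizontal log axes) in the 12 libraries; KO is Cdk1 Liv-/-, colours are groups and symbols are replicates 1, 2 and 3. The Cdk1 Liv-/- hepatocyte libraries hold Slc40a1 at 31.3 to 34.0 FPKM and have low sums of Kupffer cell and macrophage markers, 149 to 228, a range that also holds WT hepatocytes replicate 2 (203; Slc40a1 at 69.4 FPKM); the part of the markers was not tested.

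Of the 3 other genes of export and iron oxidation, 2 could be tested and 0 were called. Ceruloplasmin (Cp), the ferroxidase of plasma, stood at 882, 953 and 803 FPKM in WT and 1625, 1581 and 1714 in Cdk1 Liv-/- whole livers, a rise of 0.90 (adjusted p = 0.00231), and did not pass the test in hepatocytes (0.35, adjusted p = 0.185; 0.0642 in 1 fit of all 12 libraries, at most 0.369 over the alternatives), with a difference of -0.55 (adjusted p = 0.102). Of 5 genes of the iron regulatory protein system, 0 were called in either compartment, with 0 past the adjusted p in hepatocytes and 4 higher and 0 lower in whole liver (1 and 1 with median-ratio size factors; 38.0% of all genes were higher), where Skp1a, the most abundant, stood at 119 and 136 FPKM on average (0.20, adjusted p = 0.0399; -0.022 with median-ratio size factors, and 0.16 and 0.17 with adjusted p of 0.105 and 0.11 without WT or Cdk1 Liv-/- replicate 3). Of 16 genes of mitochondrial iron use, 0 were called, with 1 higher and 1 lower by adjusted p in hepatocytes, against 12.1% and 6.61% of all genes, and 4 higher and 1 lower in whole liver, against 38.0% and 7.53%, where the direction turned to 0 higher and 4 lower with median-ratio size factors. In hepatocytes that scaling left 1 of the 16 genes called lower. Hspa9, their most abundant member, did not pass the test in either compartment (adjusted p = 0.298 and 0.139), but in whole liver it was lower with median-ratio size factors (-0.36, adjusted p = 0.0143), with the per-gene test and q-values (adjusted p = 0.0568) and without Cdk1 Liv-/- replicate 2 (-0.20, adjusted p = 0.0339).

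Haem is made from the iron that cells take up. Of 12 genes of its synthesis 1 was called higher and 1 lower in hepatocytes, against 4.20% and 2.17% of all genes, and 0 in whole liver. Alas1, the rate-limiting enzyme in liver, stood at 81.9, 112 and 84.2 FPKM in WT hepatocytes and 161, 199 and 227 in Cdk1 Liv-/- hepatocytes (1.07, adjusted p = 0.0161) and rose by 0.62 in whole liver (adjusted p = 0.0113). Its hepatocyte value fell just under the log2 fold change of 1 with median-ratio size factors (0.998), without WT hepatocytes replicate 1 (0.99) and without Cdk1 Liv-/- hepatocytes replicate 3 (0.96). Alas2, its erythroid counterpart, stood at 16.0, 14.1 and 13.1 and 4.11, 9.82 and 4.78 FPKM in the same hepatocyte groups (-1.23, adjusted p = 0.0552), a call that ended without WT hepatocytes replicate 1, 2 or 3 (adjusted p = 0.157, 0.117 and 0.111) or Cdk1 Liv-/- hepatocytes replicate 1 or 3 (adjusted p = 0.126 and 0.152; from 0.00452 over the alternatives). The erythroid markers had a median log2 fold change of -1.16 in the same libraries and -0.66 without WT hepatocytes replicate 3; their part in the result was not tested. Of 10 genes of haem and haemoglobin scavenging found, 2 were called higher and 0 lower in each compartment (of all genes 4.20% were called higher in hepatocytes and 4.59% in whole liver), but 0 were called higher in whole liver with median-ratio size factors and 3 higher and 1 lower there without Cdk1 Liv-/- whole liver replicate 3. The 2 were haptoglobin (Hp), at 2039.7, 2167 and 1857 and 3979, 4035 and 5489.8 FPKM in WT and Cdk1 Liv-/- hepatocytes, and hemopexin (Hpx), at 3353, 3369.6 and 3566 and 5805, 8069.6 and 8278. Hp rose by 1.14 in hepatocytes and 1.04 in whole liver, and Hpx by 1.09 and 1.05 (adjusted p = 0.0139, 0.00122, 0.0213 and 0.0158). With median-ratio size factors the whole-liver values were 0.82 for Hp and 0.83 for Hpx, under the log2 fold change of 1, as was Hpx without Cdk1 Liv-/- whole liver replicate 2 (0.83). In hepatocytes, size factors left 2 of the 10 scavenging genes called higher and 1 called lower. Without Cdk1 Liv-/- hepatocytes replicate 3 the hepatocyte values were 0.99 for Hp and 0.997 for Hpx, and without the filter on low values Hpx did not pass in hepatocytes (adjusted p = 0.112, from 0.00293 over the alternatives). Over the 10 lists together, 101 genes could be tested, with 9 called higher and 6 lower in hepatocytes and 11 higher and 0 lower in whole liver, against 4.20%, 2.17%, 4.59% and 1.00% of all genes. With median-ratio size factors the counts were 8 and 8 in hepatocytes and 9 and 1 in whole liver. Without WT hepatocytes replicate 3 the hepatocyte counts were 8 and 4, and without Cdk1 Liv-/- whole liver replicate 3 the whole-liver counts were 11 and 1. By adjusted p alone 52 of the 101 were higher and 6 lower in whole liver, where 38.0% and 7.53% of all genes were, and 28 and 19 with median-ratio size factors.

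Isolated hepatocytes and whole liver were compared in WT to see how the set differs between the preparations without the knockout. There limma called 0 of the 10 genes between hepatocytes and whole liver, against 0.466% of all genes, 2 genes had an unadjusted p under 0.05, and the per-gene test with q-values called 0. Over all genes the calls were 7 higher and 74 lower, 55 and 472 without WT hepatocytes replicate 3, and 1 and 0 without WT hepatocytes replicate 1. Without replicate 3 still 0 of the 10 were called, though Ftl1 passed by adjusted p alone (-0.38, adjusted p = 0.0684). In the main fit 1 of the 12 tested inflammatory inducers of hepcidin and their signalling genes was called higher in WT hepatocytes, and 0 lower. By mean FPKM in WT hepatocytes the order was Trf (22302), Ftl1 (1004), Fth1 (781), Tfr2 (126), Slc40a1 (80.3), Tfrc (63.7), Hfe (15.1), Hamp2 (4.34), Hamp (0.867) and Bmp6 (0.397). The libraries of neighbours in this order did not overlap, except for Hamp and Bmp6. In Cdk1 Liv-/- hepatocytes Hamp2 (387) came after Fth1 (953), Hamp (128) after Tfr2 (153) with overlapping libraries, and Slc40a1 (32.3) after Tfrc (41.0). Over the 12 libraries the genes of at least 1 FPKM most like Hamp by Pearson's r of log2(FPKM + 0.5) were Ano10 (0.985), Abcb1b (0.984), Aaas (0.984), Ces1b (0.983) and Obox8 (0.983), of 12282 genes compared. Those most like Tfrc were Serpina1e (0.924), Rpl35a (0.869), Pde8a (0.854), Hspa9 (0.854) and Atxn1 (0.814). These correlations describe 12 libraries that share the genotype and compartment groups.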

How the data were processed

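Gene-level FPKM values, as the authors deposited them for 12 libraries, were made with STAR and RSEM 1.2.31 on mm10, per the submitters' processing notes; neither the version of STAR nor the annotation release was given there. Every per-sample column was used. The supplementary fold changes and q-values were not used.

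Values were tested on log2(FPKM + 0.5) with limma 3.58.1 (trend, moderated, two-sided) in R 4.3.3, over genes with a mean of at least 0.1 FPKM, with Benjamini-Hochberg adjustment over all 17386 genes. The fit was tested on simulated data. Each genotype comparison used its 6 libraries, the difference between compartments all 12. Genes and lists were chosen with earlier results of these data known. Named were the 10 genes, of each iron list the called genes and the most abundant one, and the 5 genes most like Hamp and Tfrc. Alternatives changed the pseudocount, filter, scaling, trend, test, block and libraries. Reads per FPKM were estimated from the steps of low values in short genes with 1 transcript; 55.9% to 63.5% of such values fell within 0.1 reads of a whole number, so they are approximate.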

Additional observations from a re-analysis of the deposited data

Results flagged for a closer look

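For 7 of the named genes the change with genotype differed between hepatocytes and whole liver. Each passed an adjusted p of 0.1 in the fit of all 12 libraries. Of all genes 2.35% did so upward and 7.49% downward. The count of 7 cannot be set against these shares, since many named genes were chosen because they were called in a compartment. Groups of 3 libraries were not tested for single libraries far from the others. Each value is the log2 fold change in hepatocytes minus that in whole liver. Hamp2 differed by 2.79 (adjusted p = 0.0972), from 6.19 in hepatocytes and 3.40 in whole liver. Slc40a1 differed by -1.06 (adjusted p = 0.0218), from -1.29 and -0.24. Bmp2 differed by -1.50 (adjusted p = 0.0595), from -1.44 and 0.056. Smad6 differed by -1.79 (adjusted p = 0.0521), from -1.35 and 0.44. Il1b differed by -3.49 (adjusted p = 0.0103), from -2.01 and 1.48. Inhbb differed by -2.84 (adjusted p = 0.00702), from -2.56 and 0.28. Scara5 differed by 1.79 (adjusted p = 0.0707), from 3.15 and 1.36. The difference was not past the threshold in 15 of 21 alternative fits for Hamp2, 10 for Scara5, 5 for Bmp2 and 2 for Smad6, and in 0 for Slc40a1, Il1b and Inhbb. Leaving out 1 library ended the Scara5 difference for WT hepatocytes replicate 1 or 3 (1.82 and 1.77, adjusted p = 0.108 and 0.118), any WT whole liver library (adjusted p = 0.122 to 0.164) and Cdk1 Liv-/- whole liver replicate 2 or 3 (1.64 and 1.80, adjusted p = 0.149 and 0.114). The Smad6 difference ended without WT whole liver replicate 1 or Cdk1 Liv-/- whole liver replicate 2 (adjusted p = 0.14 and 0.108).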

How the results depend on the processing

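The log2 fold change of Hamp kept its direction and its side of the threshold under all 16 alternatives in each compartment (5.99 to 6.97 in hepatocytes, 4.92 to 5.98 in whole liver). By adjusted p alone 5 of the 10 genes were past the threshold in hepatocytes and 7 in whole liver. For the difference between compartments the count was 1, Slc40a1, with a pseudocount of 0.1, without a filter, with median-ratio size factors, and, chosen after seeing the data, without both libraries that stood apart; leaving out 1 library gave 1 to 3. With the replicate number as a block that count was also 1; same-numbered libraries deviated together with correlations from -0.317 to 0.239, over 0.1 in 2 of 18 pairs, so the numbers were not shown to pair. Without the filter Tfr2, Bmp2, Bmp5, Smad6, Socs3 and Alas2 in hepatocytes and Smad6, Stat3 and Ltf in whole liver did not pass either (adjusted p = 0.101 to 0.182). With the block the same held for Tfr2, Bmp5, Smad6, Socs3, Alas2 and Stat3 in hepatocytes and Tfr2, Stat3 and Skp1a in whole liver (0.103 to 0.169). Signs turned for values near 0: Bmp6 in hepatocytes with a pseudocount of 1 (-0.0035) or size factors (-0.011), Hfe (0.015) and Pcbp1 (0.012) in hepatocytes after rescaling to the same sum, Tfr2 (-0.10), Bmp2 (-0.14), Pcbp1 (-0.040) and Skp1a (-0.022) in whole liver with size factors, and the difference between compartments of Fth1 (0.12) and Ftl1 (0.023) with size factors and of Ftl1 (0.017) without both libraries. Leaving out 1 library gave ranges across 0 in hepatocytes for Bmp6 (-0.21 to 0.26), Ltf (-0.21 to 0.69), Pcbp1 (-0.024 to 0.0041) and Hfe (-0.13 to 0.14), in whole liver for Bmp2 (-0.078 to 0.14), for the difference between compartments for Fth1 (-0.092 to 0.085) and Tfrc (-0.47 to 0.11), and between WT hepatocytes and WT whole liver for Hamp2 (-0.073 to 0.30), Hamp (-0.13 to 0.40), Bmp6 (-0.33 to 0.13), Slc40a1 (-0.077 to 0.13) and Hfe (-0.12 to 0.16). The cause was not tested. Bmp6 could not be tested with a filter of 1 FPKM, and the per-gene test does not apply to the difference between compartments. Depth limits Hamp in WT, where single libraries hold an estimated 6.29 to 21.7 reads; reads were estimated for the 10 genes alone.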
